A study of Mus musculus with 4 samples.

Results

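Leydig cells, the steroid-making cells between the seminiferous tubules, were followed through 9 genes for their hormones, receptors and lineage factors: Insl3, Lhcgr, Prlr, Ren1, Pdgfra, Pdgfa, Nr2f2, Vcam1 and Hsd11b1. Every transcript whose RefSeq accession carries 1 of these symbols was taken, which gave 10 transcripts of the 25631 on the array and 9 of 17277 named genes. Nr2f2 had 2 transcripts and each other gene 1. Whole-testis RNA of male mice at postnatal day 9 was hybridised to 3 arrays labelled Dmrt1 KO, which were Cre-positive, and to 1 array labelled Control, which was Cre-negative, and all 4 titles name the DHH-cre driver. Dmrt1 encodes a DM domain transcription factor found in germ cells and in Sertoli cells, which support them, and Desert hedgehog (Dhh), whose promoter names the driver, is made in the testis by Sertoli cells. Whether the control testis carried conditional Dmrt1 alleles is not given in the sources used here. Nor is it given whether each knockout array had its own animal, so the spread behind the p-values may be technical.

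The juvenile mouse testis holds fetal Leydig cells together with spindle-shaped progenitors of the adult population. Progenitors carry the PDGF receptor alpha and the nuclear receptor COUP-TFII, while maturing Leydig cells gain the luteinizing hormone receptor, which acts through cyclic AMP to raise steroid synthesis, and secrete the peptide INSL3. Sertoli cells signal to these cells through Desert hedgehog and PDGF ligands.

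Dmrt1 (NM_015826) had intensities of 9623, 10633 and 12959 in the knockout arrays and of 18252 in the control. All 3 knockout arrays lay below the control, by -0.73 ± 0.27 log2 units (SE; limma, adjusted p = 0.586), so the targeted gene itself did not pass the test. The position of its probes relative to the deleted part is not known here. Genes that mark Leydig cells were present on every array: the cholesterol side-chain cleavage gene Cyp11a1 lay between 12537 and 16397 in the knockout arrays and at 11581 in the control, and Cyp17a1, which makes androgen precursors, between 25468 and 53542 in the knockout arrays and at 30891 in the control. In these whole-testis samples, fewer cells of a type and less RNA per cell cannot be told apart.

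The hormone and the receptor that define the Leydig cell are Insl3 and Lhcgr, and the bases upstream of their starts are printed for the letters bound by 2 factors measured here, COUP-TFII (Nr2f2) and steroidogenic factor 1 (Nr5a1). Both factors bind DNA around the hexamer AGGTCA. Capitals mark AGGTCA or AAGGTC on either strand, so that TGACCT or GACCTT also counts, and AAGGTC was chosen after the sequences had been seen. The sequences are RefSeq's for build GRCm38.p6, 250 bases up to the start, written 5′ to 3′ on the strand of the gene, at chr8:71689002-71689251 (plus strand) for Insl3 and chr17:88792015-88792264 (minus strand) for Lhcgr.
Insl3: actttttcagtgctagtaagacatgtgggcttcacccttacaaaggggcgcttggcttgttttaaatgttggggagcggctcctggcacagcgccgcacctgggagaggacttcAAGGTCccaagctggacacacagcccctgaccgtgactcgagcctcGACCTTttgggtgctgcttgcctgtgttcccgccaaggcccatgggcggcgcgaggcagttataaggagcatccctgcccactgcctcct
Lhcgr: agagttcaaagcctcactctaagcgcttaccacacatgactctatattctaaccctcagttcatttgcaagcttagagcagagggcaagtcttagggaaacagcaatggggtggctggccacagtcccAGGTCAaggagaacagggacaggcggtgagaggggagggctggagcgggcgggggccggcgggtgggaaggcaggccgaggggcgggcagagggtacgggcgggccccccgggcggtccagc
AGGTCA stood in the Lhcgr window, 122 to 117 bases before the start, and in no other of the 11 windows of the 8 member genes with an entry, which leave out Vcam1. It was in 14% of all 32851 windows of this length. AAGGTC stood in the Insl3 window 136 to 131 bases before the start and, on the other strand, 90 to 85 bases before it, and was in 10.6% of all windows. These letters are a description of the sequence and not a binding site shown in these testes.

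No Leydig lineage gene passed the test between knockout and control testes. limma called 0 of the 10 transcripts at an adjusted p under 0.05, against 0.655% of all 25631 transcripts (0.156% higher and 0.499% lower in the knockouts). Of the 10, 1, that of Prlr, had an unadjusted p under 0.05, against 6.42% of all. The knockout arrays lay together above the control for 4 transcripts (Prlr, Ren1, Pdgfra and Hsd11b1), where 25.6% of all transcripts did so. They lay together below it for both Nr2f2 transcripts, where 24.2% of all did so, and on either side of it for the other 4, so that 6 of 10 did not overlap, where 49.8% of all did not. Not 1 of the 10 was at least 2-fold above the control in every knockout array, or 2-fold below it, where 0.398% and 0.753% of all transcripts were. The median difference of the 10 transcripts was 0.09 on the log2 scale, against 0.0043 over all transcripts. The smallest difference called anywhere on the array was 1.35, more than any member's difference, and a gene that did not pass is not shown to be equal in the groups. An exact permutation test over the 4 ways to choose the control array could give no p below 0.25.

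**Figure D1:**
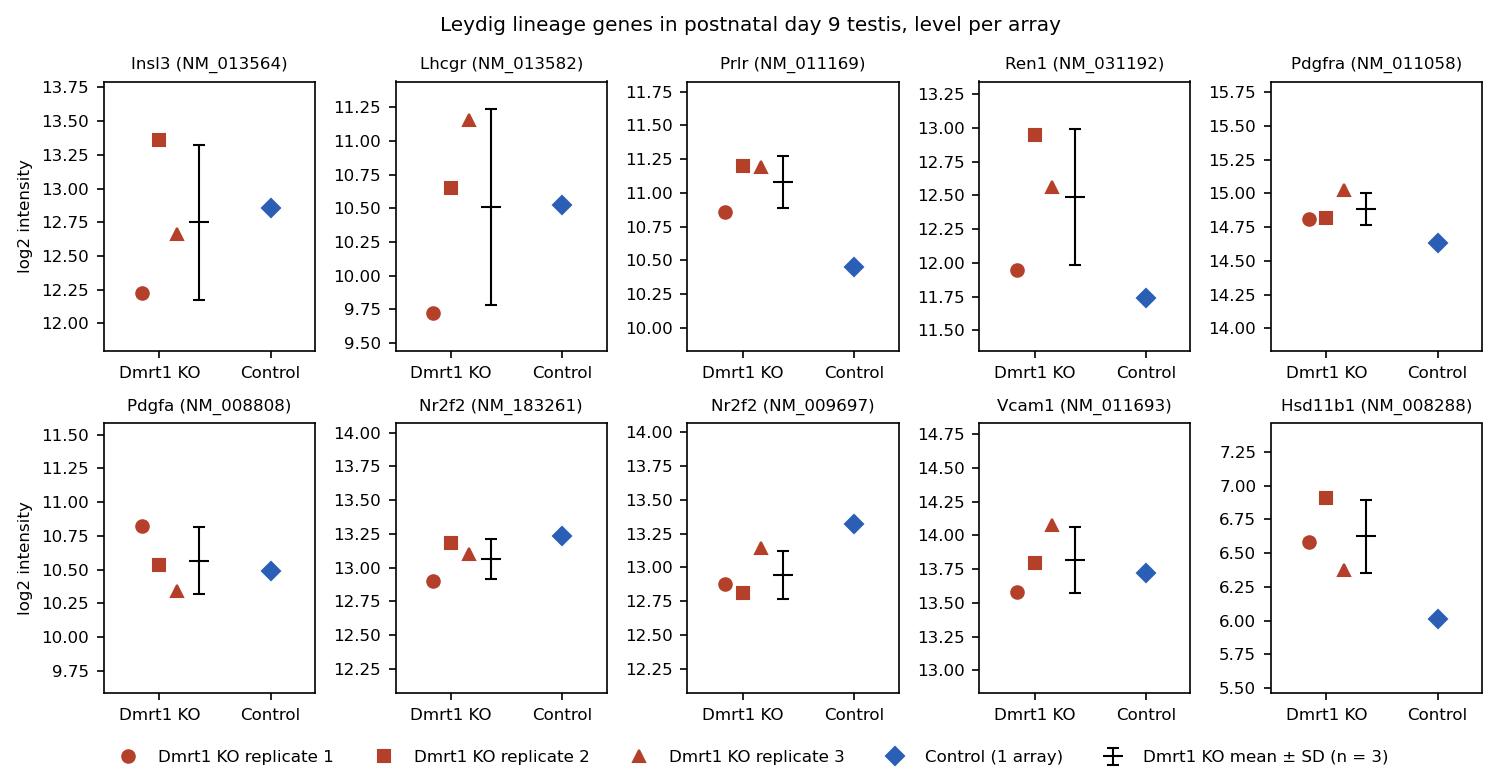
Level of each Leydig lineage transcript on each array, as log2 intensity, with the 3 Dmrt1 KO arrays (red, 1 symbol per replicate), their mean ± SD (n = 3) and the 1 Control array (blue). Each panel spans 2 log2 units, and Insl3 and Lhcgr show knockout arrays on either side of the control, while those of Prlr, Ren1, Pdgfra and Hsd11b1 all lie above it.

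Insl3 (NM_013564) encodes the relaxin-family peptide that drives the first phase of testis descent. Its intensity was 4788, 10520 and 6486 in knockout replicates 1, 2 and 3, against 7410 in the control. Replicate 2 was above the control and replicates 1 and 3 were below it, so the groups overlapped. Knockout minus control was -0.11 ± 0.39 in log2 units (SE; limma, adjusted p = 0.999), with a 95% interval of -0.97 to 0.76. Between the highest and the lowest knockout array the level differed 2.20-fold, more than the fitted difference between the groups.

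Lhcgr (NM_013582), the receptor for luteinizing hormone, had intensities of 846, 1610 and 2278 in knockout replicates 1, 2 and 3, against 1471 in the control. Replicate 1 was below the control and the other knockout arrays were above it. The widest spread of any member among the knockout arrays was that of Lhcgr, at 2.69-fold from lowest to highest, and the fitted difference was -0.01 ± 0.45 (SE; limma, adjusted p = 1), with a 95% interval of -1.02 to 0.99. Without knockout replicate 1 both genes turned positive, at 0.16 for Insl3 and 0.38 for Lhcgr, and neither passed.

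Partners of these signals gave no call in either direction. Of 14 measured genes of relaxin-family and gonadotropin receptor signalling, limma called 0 higher and 0 lower, with a median difference of 0.17. Rxfp2, the INSL3 receptor of the gubernaculum and of germ cells, was dim, at 141, 128 and 194 in the knockout arrays and 106 in the control. By p, the first 2 genes of the list were Fshr, the follicle-stimulating hormone receptor of Sertoli cells, at -1.12 ± 0.32, and Nr4a1, a nuclear receptor induced by cyclic AMP in Leydig cells, at 0.76 ± 0.27 (limma, adjusted p = 0.301 and 0.505). With Creb1, at -0.68 ± 0.26, these were the 3 of 14 with an unadjusted limma p under 0.05, against 6.42% of all transcripts.

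Prlr (NM_011169) encodes the prolactin receptor, a cytokine receptor that signals through JAK2 and STAT5. Its intensity was 1859, 2348 and 2337 in the knockout arrays, against 1403 in the control. All 3 knockout arrays lay above the control, by 1.33- to 1.67-fold. The difference was 0.63 ± 0.27 on the log2 scale, with a 95% interval of 0.03 to 1.23, and it did not pass over all transcripts (limma, adjusted p = 0.738, unadjusted p = 0.0418).

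Among 9 genes of prolactin and growth hormone receptor signalling, limma called Cish lower and none higher, and 8 did not pass. Cish (NM_009895), a feedback inhibitor of the SOCS family that STAT5 induces, had intensities of 542, 630 and 724 in the knockout arrays, against 1810 in the control. It differed by -1.53 ± 0.27 in log2 units (limma, adjusted p = 0.0387), and it passed no longer without knockout replicate 1 (adjusted p = 0.0643) or with 50 intensity units added to every value before the logarithm (adjusted p = 0.0805), within a range of 0.0242 to 0.0805 over its alternatives. Its relative Socs2, also a STAT5 target, was on the other side, at 10060, 11567 and 11605 in the knockout arrays against 5754 in the control. That difference was 0.94 ± 0.26 and did not pass (limma, adjusted p = 0.261). Stat5a was at 0.03 ± 0.30, Stat5b at 0.15 ± 0.25 and Jak2 at -0.04 ± 0.28. Which testis cells gave the Cish signal was not tested.

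Ren1 (NM_031192) encodes renin, the protease that cuts angiotensinogen and that mouse Leydig cells also make. Its intensity was 3952, 7888 and 6055 in knockout replicates 1, 2 and 3, against 3423 in the control. All knockout arrays were above the control, replicate 1 by 1.15-fold and replicate 2 by 2.30-fold. The difference of 0.74 ± 0.36 was the largest of the 10 transcripts, with a 95% interval of -0.06 to 1.55 (limma, adjusted p = 0.827). It was 1.01 without replicate 1 and 0.52 without replicate 2. Ren2 (NM_031193) is a near-identical copy that some mouse strains carry and others lack, so the split of signal between the transcripts is uncertain. It had 889, 1935 and 1570 in the knockout arrays and 1105 in the control, and like Ren1 was lowest in replicate 1 and highest in replicate 2 of the knockout arrays.

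In the renin-angiotensin list, which leaves out Ren1 but counts Ren2, 0 of 10 measured genes passed in either direction, with a median difference of 0.25. Of the 10 differences 9 were above 0, that of Ren2 among them (0.33 ± 0.39), against 50.6% over all transcripts. All 3 knockout arrays lay above the control for 5 of the 10, against 25.6% of all transcripts. Agt, the angiotensinogen gene, had 4245, 3131 and 4365 in the knockout arrays, against 2006 in the control. Its difference of 0.95 ± 0.29 did not pass (limma, adjusted p = 0.367). Agtr2, an angiotensin receptor, had the second smallest p of the list and was at 0.45 ± 0.26, and the converting enzyme Ace was at 0.07 ± 0.27.

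**Figure D2:**
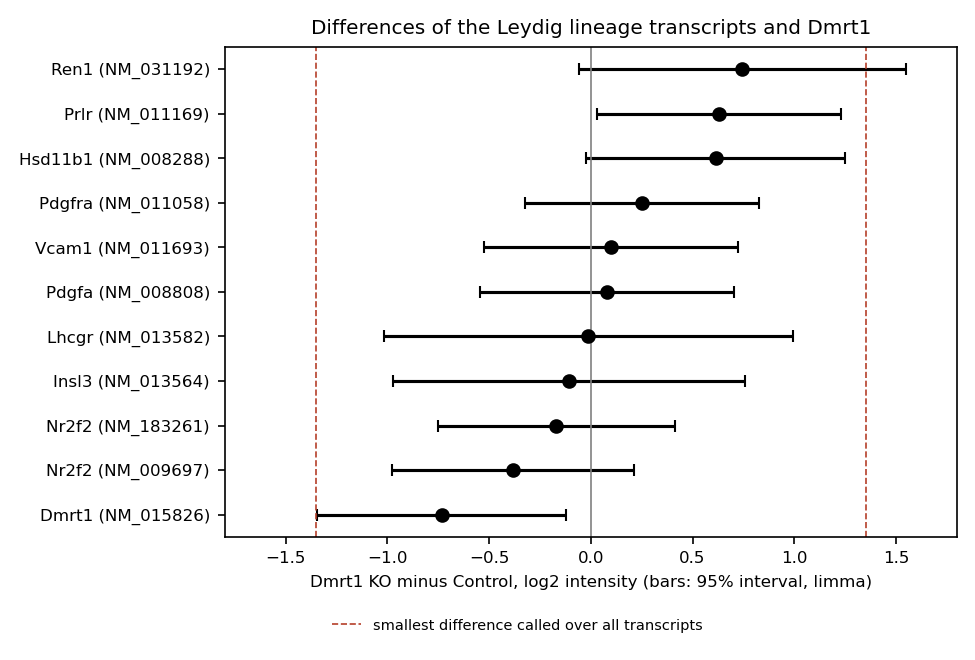
Dmrt1 KO minus Control on the log2 scale for the 10 Leydig lineage transcripts and Dmrt1, with 95% intervals from limma as bars. Dashed lines at 1.35 on either side of 0 mark the smallest difference called over all transcripts. Prlr is the only member whose interval, before adjustment, leaves out 0.

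Pdgfra (NM_011058), the tyrosine kinase receptor of interstitial progenitors, had intensities of 28778, 28816 and 33331 in the knockout arrays, against 25413 in the control. The knockout arrays lay close together and all above the control. It differed by 0.25 ± 0.26 in log2 units (limma, adjusted p = 0.996), with a 95% interval of -0.32 to 0.83. Its ligand gene Pdgfa (NM_008808), without which mice form few adult Leydig cells, had 1817, 1486 and 1295 in the knockout arrays, against 1436 in the control. Replicates 1 and 2 were above the control and replicate 3 below it, with a difference of 0.08 ± 0.28 and a 95% interval of -0.55 to 0.71.

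The other PDGF genes gave 0 calls among 4. Pdgfc, another ligand of the same receptor, had 869, 1042 and 1167 in the knockout arrays, against 1968 in the control. All knockout arrays were lower, by -0.95 ± 0.27 on the log2 scale, without passing (limma, adjusted p = 0.310). Pdgfd was at 0.27 ± 0.33, Pdgfb at 0.01 ± 0.26 and the second receptor, Pdgfrb, at 0.01 ± 0.26.

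Nr2f2 encodes COUP-TFII, a nuclear receptor of Leydig stem and progenitor cells and of other stromal and vascular cells. Transcript NM_009697 had 7504, 7174 and 9069 in the knockout arrays, against 10255 in the control. Transcript NM_183261 had 7653, 9312 and 8801 in the knockout arrays, against 9623 in the control. All knockout arrays were lower on both transcripts, at -0.38 ± 0.27 and -0.17 ± 0.26 in log2 units (limma, adjusted p = 0.968 and 0.999), although the transcripts ordered the knockout arrays differently. The 95% intervals were -0.98 to 0.21 and -0.75 to 0.41.

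Among 7 relatives and partners of COUP-TFII, none passed in either direction. Nr2f1, which encodes COUP-TFI, was dim, at 103, 188 and 99.1 in the knockout arrays and 39.1 in the control. It had a difference of 1.67 ± 0.37 (limma, adjusted p = 0.106), and whether its control value lies above background is not known. Nr0b1, which encodes the repressor DAX1, was at -1.35 ± 0.26 (limma, adjusted p = 0.0531). With Zfpm2, at 0.68 ± 0.29, these were the 3 of 7 with an unadjusted limma p under 0.05, against 6.42% of all transcripts.

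Vcam1 (NM_011693), an adhesion receptor of interstitial and endothelial cells, had 12282, 14255 and 17263 in the knockout arrays, against 13507 in the control. Replicate 1 was below the control and the other knockout arrays were above it, with a difference of 0.10 ± 0.28 and a 95% interval of -0.53 to 0.72. Of 7 genes for its integrin partners and for related adhesion molecules, 0 passed, and the smallest p values were those of Itgb7 at -0.57 ± 0.26 and Icam1 at 0.27 ± 0.26.

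Hsd11b1 (NM_008288), which interconverts active and inactive glucocorticoids and, in rats, rises as adult Leydig cells mature, had 96.0, 120 and 83.1 in the knockout arrays, against 64.5 in the control. All knockout arrays were above the control, by 0.61 ± 0.29 in log2 units (limma, adjusted p = 0.802), with a 95% interval of -0.02 to 1.25. Its level was the dimmest of the members, with a mean above that of 10.2% of all transcripts, and whether it lay above background could not be checked. With 50 intensity units added before the logarithm the difference was 0.38, and a filter that kept the brighter 19223 transcripts removed the gene. In the glucocorticoid list 0 of 5 measured genes passed. H6pd, whose enzyme supplies the cofactor of HSD11B1, was at 0.40 ± 0.27, and Hsd11b2 at -0.35 ± 0.26.

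The steroidogenic and adult Leydig list gave no call. Of 12 measured genes, limma called 0 higher and 0 lower, while 11 differences were above 0, against 50.6% over all transcripts, and the median was 0.32. All 3 knockout arrays lay above the control for 7 of the 12, against 25.6% of all transcripts. These differences share the 1 control array. Star, which brings cholesterol into mitochondria, had 1746, 3101 and 2732 in the knockout arrays, against 1697 in the control. Hsd3b1, with the smallest p of the list, had 24876, 27413 and 28684 in the knockout arrays, against 15954 in the control. Its difference of 0.76 ± 0.26 did not pass (limma, adjusted p = 0.479). Hsd3b6, typical of adult Leydig cells, was at 0.57 ± 0.29. The fetal and progenitor list had a median of -0.16, with 0 of 11 genes past the test and 4 differences above 0. Thbs2, a thrombospondin gene of fetal Leydig cells, was at -0.58 ± 0.32.

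**Figure D3:**
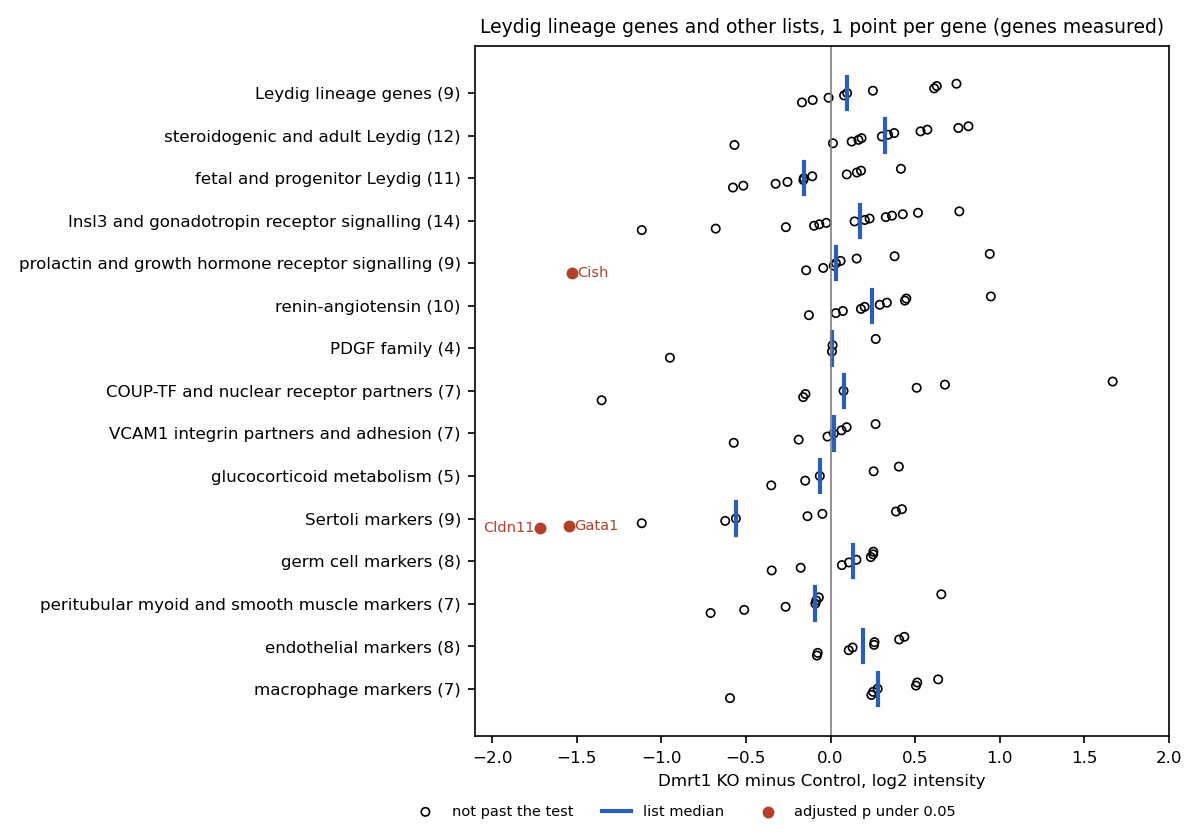
Dmrt1 KO minus Control on the log2 scale for every measured gene of the Leydig lineage and of the other lists, with open circles for genes that did not pass, filled circles for adjusted p under 0.05 and a blue bar at each list's median. Nr2f2 is shown by its brighter transcript. Cish, Cldn11 and Gata1 are the genes past the test, all lower in the knockout arrays.

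Knockout replicate 1 had the lowest level of the 3 knockout arrays for 7 of the 10 Leydig lineage transcripts, where 34.2% of all transcripts were lowest in that array. Replicate 2 was lowest for 1 of the 10 and replicate 3 for 2, against 30.8% and 34.9% of all transcripts. The same array was lowest for 8 of the 12 steroidogenic and adult Leydig genes. The median difference from the control in that list was 0.11 in replicate 1, 0.47 in replicate 2 and 0.55 in replicate 3, while over all transcripts these medians were -0.0017, 0.01 and 0.0043. Cyp17a1 was below the control in replicate 1, at 25468, and above it in replicates 2 and 3, at 47328 and 53542. Among the members, Insl3 and Lhcgr were at -0.63 and -0.80 from the control in replicate 1, at 0.51 and 0.13 in replicate 2 and at -0.19 and 0.63 in replicate 3. The 3 arrays did not rank these genes in 1 order, and the SD of log2 levels between knockout arrays was larger than the mean difference for Insl3, Lhcgr, Vcam1 and Pdgfa. From the lowest to the highest knockout array, the range was larger than the mean difference for Ren1 and transcript NM_183261 of Nr2f2 as well.

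**Figure D4:**
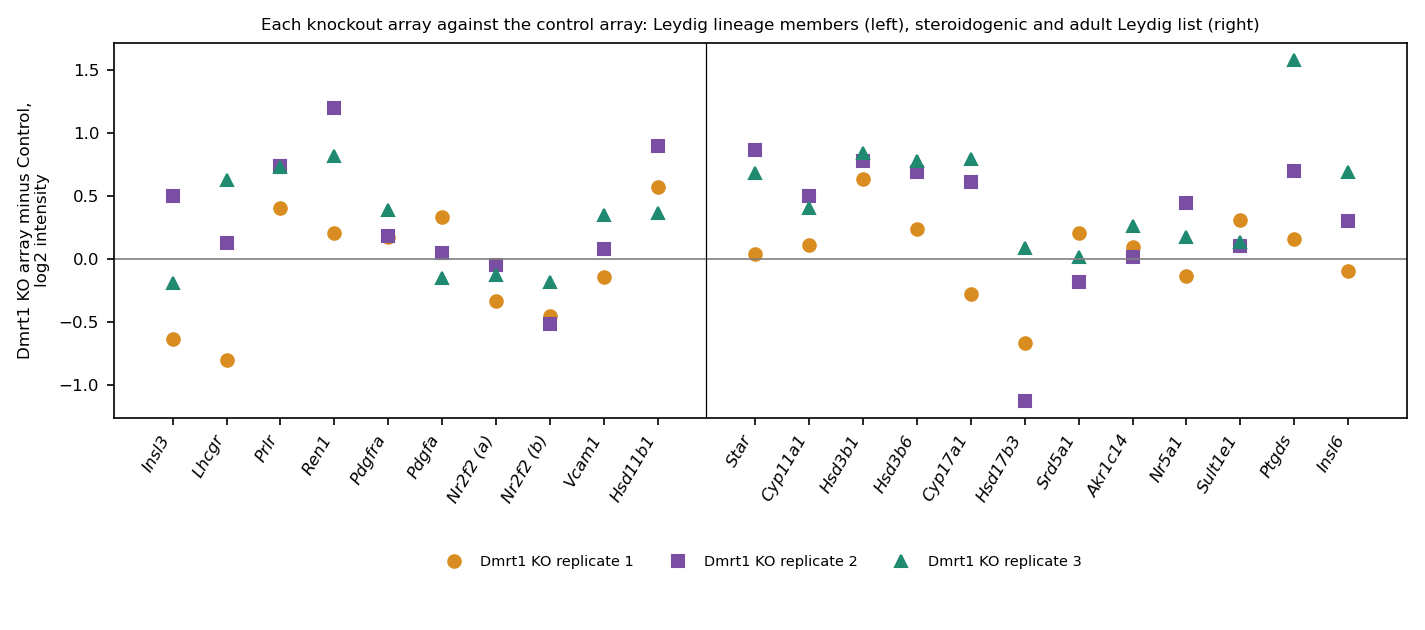
Log2 difference of each Dmrt1 KO array from the Control array, with 1 colour and symbol per replicate, for the 10 Leydig lineage transcripts (left of the line) and the 12 steroidogenic and adult Leydig genes (right). Nr2f2 (a) is NM_183261 and Nr2f2 (b) is NM_009697. Replicate 1 is the lowest knockout array for 7 transcripts on the left and 8 genes on the right.

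Among markers of the other testis cell types, limma called Sertoli genes only, where 0.655% of all transcripts were called. These lists were chosen with earlier results of these data known. The summed intensity of 7 macrophage markers was 16682 to 19400 in the knockout arrays and 13563 in the control, with 6 of 7 differences above 0, and that of 8 endothelial markers was 30233 to 32588 in the knockout arrays and 26735 in the control, with 6 of 8 above 0. The 7 peritubular and smooth muscle markers summed to 32536 to 36521 in the knockout arrays and 36930 in the control, with 1 of 7 above 0, and the 8 germ cell markers to 133649 to 163692 in the knockout arrays and 134860 in the control, with 6 of 8 above 0. In the muscle list most of the control's sum came from Myh11 and Actg2, at 19326 and 11789. They differed by -0.07 ± 0.26 and -0.08 ± 0.28, with knockout arrays on either side of the control. All 3 knockout arrays lay below the control for 2 of those 7 markers and above it for 1, against 24.2% and 25.6% of all transcripts. Over all transcripts 50.6% of differences were above 0. limma called 0 markers in each of these 4 lists, with 1, 0, 2 and 0 at an unadjusted p under 0.05. By p, the first 2 genes of each were C1qc (0.64 ± 0.26) and Cd163 (-0.59 ± 0.30) for macrophages, Cdh5 (0.44 ± 0.27) and Emcn (0.41 ± 0.25) for endothelium, Acta2 (-0.71 ± 0.26) and Des (0.66 ± 0.28) for muscle, and Kit (-0.35 ± 0.28) and Ddx4 (0.25 ± 0.25) for germ cells. Of 9 Sertoli markers limma called 2, both lower, the tight junction gene Cldn11 at -1.72 ± 0.28 and the transcription factor gene Gata1 at -1.55 ± 0.25 (limma, adjusted p = 0.0211 and 0.0248). The list summed to 108374 to 118963 in the knockout arrays and 172721 in the control, with 2 of 9 differences above 0. Most of the lower sum came from Cldn11, Gata1 and Clu. Cldn11 had 11079, 10582 and 8303 in the knockout arrays, against 32655 in the control. Gata1 had 11694, 10426 and 11445 against 32633, and Clu had 27334, 25758 and 26850 against 41020. The other 7 did not pass: Fshr at -1.12 ± 0.32, Clu at -0.62 ± 0.25, Sox9 at -0.56 ± 0.28, Aard at -0.14 ± 0.28, Amh at -0.05 ± 0.25, Dhh at 0.39 ± 0.25 and Wt1 at 0.42 ± 0.25. All 3 knockout arrays lay below the control for 6 of the 9 markers, against 24.2% of all transcripts. For Wt1 and Dhh all 3 lay above it, where 25.6% of all transcripts did so. No marker was at 0, but the lowest intensity of any transcript was 23.9, so this does not show that each marker was detected. Vascular and macrophage cells also express Vcam1, and stromal cells Pdgfra and Nr2f2, and the part of these cells in the members' values was not tested.

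The genes nearest in pattern were sought by Euclidean distance over the 3 log2 differences of knockout arrays from the control, among 17276 other named genes. Nearest to Ren1 were Adgrg7 (distance 0.06), Lin7a (0.10) and 4930467E23Rik (0.11), and nearest to Prlr were Lama4 (0.05), Slc40a1 (0.06) and Ccdc80 (0.06). Prlr had 62 genes within 0.2 of it and Ren1 had 6. Insl3 had 2, of which Cep135 was closest (0.14), followed by Olfr774 (0.19) and, just outside, Olfr147 (0.21). Lhcgr had 1, 6030498E09Rik (0.09), and then Olfr1380 (0.22) and Igfl3 (0.23). Each distance rests on 3 values that share 1 control array.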

How the data were processed

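Total RNA was extracted with TRIzol, cleaned, labelled with the dye Cy3 and run on NimbleGen one-colour arrays, per the labels' protocols. The deposited values were linear-scale intensities per RefSeq transcript, and the submitters' processing notes name RMA as the authors' tool. It corrects background, normalises arrays by quantiles and summarises probes. Its version and the probes per transcript are not given in the sources used here. Intensities ran from 23.9 to 65156, with array medians of 1005 to 1011. The number of arrays limits the precision.

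Log2 was taken with no offset. Accessions were matched without version to a RefSeq table of GRCm38.p6, which named 17780 transcripts (69.4%). All 25631 transcripts were fitted together (limma 3.58.1, R 4.3.3, lmFit and eBayes, two-sided, Benjamini-Hochberg, 2 residual and 7.97 prior degrees of freedom), with the lone control assumed to vary like the knockouts. Standard errors and 95% intervals are those of this fit, unadjusted. For list genes with several transcripts the brightest was used. The procedure was tested on data simulated from its own model, with a control that varied like the knockouts. That run cannot test the assumption made for the lone control. Named were the members, Dmrt1, called list genes, the 2 smallest p values per list and nearest patterns, with 1 such gene not reported here. Others were chosen after their values were seen. The members and lists were chosen with earlier results of these data known. Of 14 lists with 121 genes, 117 genes were measured.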

Additional observations from a re-analysis of the deposited data

How the results depend on the processing

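Leydig genes past the test numbered 0 under all 10 alternatives, with 0 to 3 members at an unadjusted p under 0.05. Of 99 member differences recomputed, 94 kept their sign and 5 turned: without knockout replicate 1, Insl3 to 0.16, Lhcgr to 0.38 and Pdgfa to -0.050, without replicate 3, Vcam1 to -0.030, and after quantile normalisation again, Lhcgr to 0.0035. The cause was not tested. Leaving out each knockout array in turn gave -0.41 to 0.16 for Insl3, -0.33 to 0.38 for Lhcgr, -0.050 to 0.19 for Pdgfa and -0.030 to 0.22 for Vcam1. Over all transcripts the 168 calls became 99 with 50 intensity units added, which by construction shrinks the differences of dim transcripts, with 15 higher and 84 lower, against 40 and 128. Under the others there were 155 to 233 calls, 37 to 69 of them higher and 116 to 164 lower. Leaving out a knockout array gave 180 to 206 calls and a Dmrt1 difference of -0.85 to -0.64. Cish, Cldn11 and Gata1 were recomputed after seeing the data: Cish did not pass without knockout replicate 1 (-1.42) or with 50 units added (-1.46), and Cldn11 and Gata1 passed under all 10. Medians over all transcripts moved by at most 0.01. No paired analysis was possible because there was 1 control array and the labels give no pairing. Every alternative kept that control, so none varies it.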

Other observations

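The fetal and progenitor genes ordered the knockout arrays otherwise than the steroidogenic genes did. Of 11 measured genes, 7 were lowest in knockout replicate 2, against 30.8% of all transcripts. Ptch1 and Gli1, targets of Desert hedgehog signalling in Leydig precursors, had 7844, 3628 and 6807 and 3809, 3305 and 5057 in knockout replicates 1, 2 and 3, against 7246 and 4764 in the control. Neither passed (limma, adjusted p = 0.999 each).

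Hsd17b3, of the steroidogenic list, makes testosterone from androstenedione and in mice is expressed in fetal life by Sertoli cells. Which cells gave its signal here was not tested. It had 10004, 7272 and 16842 in knockout replicates 1, 2 and 3, against 15866 in the control, and was the 1 gene of 12 with a difference below 0, at -0.57 ± 0.40 (limma, adjusted p = 0.969). Ptgds, which makes prostaglandin D2, had the largest difference of the list, at 0.82 ± 0.45 (limma, adjusted p = 0.894), with 2568, 3741 and 6906 in the knockout arrays, against 2300 in the control.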
